A study of Mus musculus with 18 samples.

Results

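The 8 chemokine receptor genes described here, Ccr1, Ccr6, Ccr7, Ccr9, Ccr10, Cxcr3, Cxcr4, and Cxcr5, were chosen by symbol from the 55491 genes of the count table, and all 8 had a row. They were followed in B cells isolated from the spleen and Peyer's patches, which are lymphoid tissue in the wall of the small intestine, of female BALB/cJ mice aged 10 to 12 weeks. All mice, PBS controls included, were sensitized i.p. with 20 μg of the egg allergen ovalbumin (OVA) in 1 mg alum on days 0 and 14. On days 28 and 42 they received an i.v. dose of 100 μL PBS, 100 μg soluble OVA, or 2.5 mg of OVA NPs, which are polymer particles that carry OVA inside, and B cells were collected on day 44. Each of the 6 combinations of tissue and treatment had 3 libraries, labelled as biological replicates, so p-values measure the spread among these 3.

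Chemokine receptors are G protein–coupled receptors that steer cells along gradients of small secreted proteins. In lymphoid tissue, CXCR5 draws B cells into follicles toward CXCL13, CCR7 draws them toward the T cell zone along CCL19 and CCL21, and CXCR4 holds dividing germinal center cells in the dark zone near CXCL12. CCR6 answers CCL20 from the epithelium over Peyer's patches. CCR9 and CCR10 guide antibody-secreting cells to the gut and other mucosae through CCL25 and CCL28. CXCR3 and CCR1 answer chemokines of inflamed tissue.

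The promoters of the receptors on which the comparisons turn are shown so that the values can be read beside their sequence. RefSeq (GRCm38.p6) gave 6 promoter entries for 5 of the 8 genes, and each sequence is the 250 bases before a start, 5′ to 3′ on the gene's own strand. Ccr1 (chr9:123968693-123968942, minus strand), Ccr6 (chr17:8235793-8236042 and chr17:8242276-8242525, plus strand), and Ccr9 (chr9:123766961-123767210, plus strand) are the receptors that differed between OVA NPs and soluble OVA in Peyer's patch, and Cxcr4 (chr1:128592300-128592549, minus strand) was higher in Peyer's patch than in spleen under every treatment. Capitals mark matches to the motifs named after the sequences.
Ccr1: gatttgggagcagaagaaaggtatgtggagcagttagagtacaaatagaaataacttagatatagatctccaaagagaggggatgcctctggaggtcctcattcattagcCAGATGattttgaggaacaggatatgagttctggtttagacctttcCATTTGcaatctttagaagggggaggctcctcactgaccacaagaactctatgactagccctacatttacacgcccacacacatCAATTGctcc
Ccr6, the upstream start: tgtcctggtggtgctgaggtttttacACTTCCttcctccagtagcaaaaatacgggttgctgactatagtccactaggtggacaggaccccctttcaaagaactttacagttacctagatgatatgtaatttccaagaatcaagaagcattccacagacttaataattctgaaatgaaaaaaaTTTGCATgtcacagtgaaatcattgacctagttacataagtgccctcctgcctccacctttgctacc
Ccr6, the downstream start: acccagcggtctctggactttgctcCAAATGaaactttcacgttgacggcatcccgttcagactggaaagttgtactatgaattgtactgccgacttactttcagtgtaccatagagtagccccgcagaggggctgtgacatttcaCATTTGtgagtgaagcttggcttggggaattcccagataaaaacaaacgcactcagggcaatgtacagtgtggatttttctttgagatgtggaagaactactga
Ccr9: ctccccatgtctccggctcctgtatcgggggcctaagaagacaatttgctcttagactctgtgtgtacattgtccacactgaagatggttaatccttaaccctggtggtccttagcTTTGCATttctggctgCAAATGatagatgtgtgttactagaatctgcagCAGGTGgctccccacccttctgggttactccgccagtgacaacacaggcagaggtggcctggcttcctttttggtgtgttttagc
Cxcr4: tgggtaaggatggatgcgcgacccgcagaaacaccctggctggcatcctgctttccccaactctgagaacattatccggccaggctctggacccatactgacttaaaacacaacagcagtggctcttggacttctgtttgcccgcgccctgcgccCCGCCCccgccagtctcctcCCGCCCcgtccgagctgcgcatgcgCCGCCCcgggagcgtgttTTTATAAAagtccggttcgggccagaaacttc

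Motifs of 6 or 7 letters were searched on both strands. The Cxcr4 promoter held 3 GC boxes (GGGCGG, found in 32.7% of 32851 RefSeq promoters of this length) and 2 matches to TATAAA, 1 per strand, that overlap each other 30 and 32 bases before the start (12.4% of promoters). Its GC content was 61.2%, against 41.2% to 50.4% in the other 5 entries. The Ccr1 promoter held 3 E boxes (CANNTG, 66.2% of promoters). The upstream Ccr6 promoter and the Ccr9 promoter each held an octamer (ATGCAAA, 4.12% of promoters), at 67 and 134 bases before the start, and the downstream Ccr6 promoter held 2 E boxes. An ETS motif (GGAAGT, 19.7% of promoters) was found in the upstream Ccr6 promoter and in that of Cxcr3, and an AP-1 motif (TGANTCA, 6.75% of promoters) in 0 of the 6. These matches describe letters, and binding of a factor was not measured.

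Library totals ran from 14177253 to 30052297 counts, so that 3 counts were worth 0.105 to 0.22 CPM (counts scaled to library size), a limit that covers counting error only. B cell markers were high in every library, with the sum of 8 genes between 5852 and 9439 CPM, and markers of other cells were low but differed by tissue. T cell markers (10 genes) summed to 70.3 to 89.6 CPM in spleen and 191 to 233 CPM in Peyer's patch, and intestinal epithelium markers (5 genes) to 7.10 to 9.54 and 178 to 928 CPM. The T cell sum was mostly Lck, with a mean of 107 CPM over all libraries. Cd3e, Cd3d, Cd3g, Cd4, and Cd8a had means of 0.470 to 3.04 CPM. The spleen was dissociated mechanically and Peyer's patches were digested with collagenase, so tissue and preparation cannot be told apart. The Peyer's patch library of OVA NP replicate 1 stood apart from the other 2 of its group in Ccr7, Cxcr4, Egr3, and Rgs2, and the treatment and tissue differences of Ccr7 and Cxcr4 that it changes in call or by over 1.5 times are given with and without it. Mitochondrial genes took 2.82% to 3.41% of counts in spleen and 4.97% to 9.8% in Peyer's patch. In bulk RNA, fewer cells of a type and less RNA per cell cannot be told apart.

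Per exon length, 4 receptors carried nearly all of the signal. On the RPKM scale (CPM per kilobase of exon), the mean level over 18 libraries was 136 for Cxcr4, 118 for Cxcr5, 63.4 for Ccr7, and 35.0 for Ccr6. Ccr1 followed at 4.75 RPKM, Cxcr3 at 1.07, Ccr9 at 0.884, and Ccr10 at 0.533. The 4 abundant receptors made up 94.5% to 98% of the summed CPM of the 8 genes in each library. The level of Ccr9 per length is low in part by construction, since its annotated exons cover 10260 bases, against 1726 to 3332 for the other 7 genes.

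**Figure D1:**
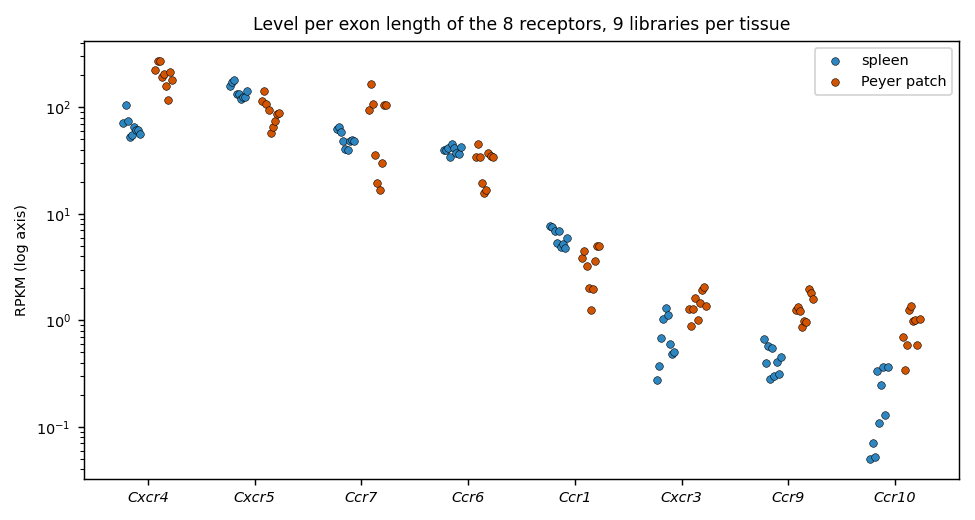
Level of each receptor per exon length (RPKM, log axis) in 9 spleen libraries (blue) and 9 Peyer's patch libraries (orange), 1 point per library, with genes ordered by their mean. Cxcr4, Cxcr5, Ccr7, and Ccr6 lie above 15 RPKM in every library, and Ccr10 stays at or below 1.36 RPKM.

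The balance of the leading pair, Cxcr4 and Cxcr5, differed between tissues. The ratio of Cxcr4 to Cxcr5 CPM was 0.213 to 0.33 in the 9 spleen libraries and 0.848 to 1.93 in the 9 Peyer's patch libraries, and the ranges did not overlap. Cxcr4 (chromosome 1, positions 128588199 to 128592293, minus strand) was at 128, 191, and 135 CPM in the spleen of PBS controls (replicates 1 to 3) and at 403, 496, and 495 CPM in their Peyer's patches. In soluble OVA–treated mice the values were 94.8, 99.0, and 118 CPM in spleen and 349, 370.2, and 287 CPM in Peyer's patch. In OVA NP–treated mice they were 112, 111, and 102.05 CPM in spleen and 209.9, 387, and 326 CPM in Peyer's patch. Every Peyer's patch library thus lay above every spleen library, the low OVA NP replicate 1 included. The log2 fold change of Peyer's patch against spleen was 1.63 ± 0.17 (SE) in PBS controls, 1.69 ± 0.12 with soluble OVA, and 1.55 ± 0.21 with OVA NPs, and all 3 passed the test (edgeR quasi-likelihood F test on 3 libraries against 3, adjusted p = 0.00043, 4.46e-06, and 0.00233).

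Between tissues, 7 of the 8 receptors passed in PBS controls, 6 in soluble OVA–treated mice, and 5 in OVA NP–treated mice, where a call needed a log2 fold change beyond 0.25 in either direction and an adjusted p below 0.05. By the same rule 45.6%, 51.1%, and 37.1% of all tested genes were called in these comparisons. In PBS controls 5 receptors were higher and 2 lower in Peyer's patch, beside 25.5% and 20.1% of all tested genes. With soluble OVA 3 were higher and 3 lower (26.7% and 24.3% of genes), and with OVA NPs 4 were higher and 1 lower (22% and 15.1%). Cxcr4, Ccr9, and Ccr10 were higher in Peyer's patch under all 3 treatments, and Cxcr5 was lower under all 3. Cxcr3 was higher in Peyer's patch in PBS controls and OVA NP–treated mice (log2 fold change 1.40 and 1.80, adjusted p = 0.0184 and 0.00151 by edgeR). The PBS call was lost without spleen PBS replicate 1 or 2 or Peyer's patch PBS replicate 1 (adjusted p = 0.0617 to 0.074 by edgeR). The Cxcr3 value with soluble OVA was 0.25 (95% CI −0.43 to 0.94). NK cell markers (5 genes) summed to 4.75 to 6.56 CPM in spleen and 16.5 to 47.4 CPM in Peyer's patch. The part of NK and T cells in the Cxcr3 differences was not tested. Ccr1 was lower in Peyer's patch in PBS controls and soluble OVA–treated mice (log2 fold change −0.92 and −1.71), and its interval with OVA NPs was −0.51 to 0.15. Ccr6 was lower in Peyer's patch with soluble OVA (−1.22, adjusted p = 3.63e-05 by edgeR), while its intervals were −0.28 to 0.12 in PBS controls and −0.24 to 0.10 with OVA NPs. Ccr7, the T zone receptor, was higher in Peyer's patch in PBS controls (0.99, adjusted p = 0.0107) and did not pass with soluble OVA (−0.85, adjusted p = 0.0715) or OVA NPs (0.76, adjusted p = 0.307). Without Peyer's patch soluble OVA replicate 1 the value with soluble OVA was −1.24 and passed (adjusted p = 4.32e-06), and without Peyer's patch OVA NP replicate 1 that with OVA NPs was 1.13 and passed (adjusted p = 7.76e-08).

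**Figure D2:**
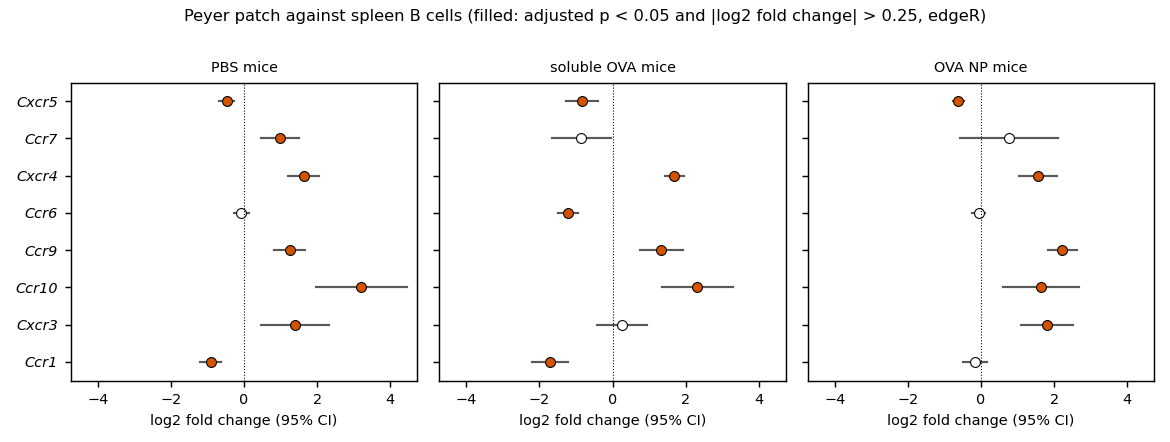
Log2 fold change of Peyer's patch against spleen for each receptor, in PBS, soluble OVA–treated, and OVA NP–treated mice, with 95% CIs and filled points where edgeR called the gene. Cxcr4, Ccr9, and Ccr10 lie right of 0 in all 3 panels, Cxcr5 lies left of 0, and Ccr6 lies near 0 except with soluble OVA, where it is −1.22.

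Ccr9 (chromosome 9, 123678439 to 123784330, plus strand), the gut-homing receptor, was the member with the widest tissue difference after OVA NPs. Its level was 6.80, 4.11, and 5.88 CPM in the spleen of PBS controls, 2.89, 5.60, and 3.06 CPM with soluble OVA, and 4.18, 3.24, and 4.63 CPM with OVA NPs. In Peyer's patch it was 13.0, 13.6, and 12.7 CPM with PBS, 8.85, 10.1, and 9.90 CPM with soluble OVA, and 20.04, 18.4, and 16.3 CPM with OVA NPs. The 3 Peyer's patch groups did not overlap each other or any spleen group, while the spleen groups overlapped. Peyer's patch exceeded spleen by 1.24 ± 0.19 on the log2 scale in PBS controls, 1.33 ± 0.26 with soluble OVA, and 2.23 ± 0.17 with OVA NPs (edgeR, adjusted p = 0.000419, 0.00216, and 1.52e-05). Ccr9 lies in a crowded region, and 18.8% of its exon bases are shared with AC165425.1 on the other strand and 0.214% with Slc6a20a. The strand setting of the counting is not given in the sources used here, so reads of these neighbors may be split. AC165425.1 was at 1.58 CPM or less in every library. Slc6a20a, an epithelial transporter, was at 0.967 CPM or less in spleen and 19.4 to 87.0 CPM in Peyer's patch. Dendritic cell markers (7 genes) summed to 18.3 to 28.1 CPM in spleen and 51.0 to 80.7 CPM in Peyer's patch. T and NK cell markers were also higher in Peyer's patch. The part of these cells in the Ccr9 differences was not tested.

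Ccr10 (chromosome 11, 101172997 to 101175443, minus strand), a receptor of mucosal plasma cells, was close to the detection limit in spleen. Its counts were 2, 3, and 2 in PBS spleen, 15, 3, and 8 with soluble OVA, and 11, 4, and 16 with OVA NPs. In Peyer's patch they were 29, 8, and 20 with PBS, 62, 60, and 41 with soluble OVA, and 38, 22, and 39 with OVA NPs. The tissue difference was 3.21 on the log2 scale in PBS controls (95% CI 1.96 to 4.46), 2.32 with soluble OVA (1.34 to 3.30), and 1.63 with OVA NPs (0.59 to 2.68), and each passed in edgeR (adjusted p = 0.001, 0.00163, and 0.0195). The PBS value rests on 2 or 3 counts per spleen library and depends on the prior count of the fit, and the OVA NP call was lost without spleen OVA NP replicate 2 or Peyer's patch OVA NP replicate 3 (adjusted p = 0.0706 and 0.0684). The sum of 7 plasma cell markers moved the same way, at 422 to 666 CPM in spleen and 962 to 1182 CPM in Peyer's patch. Jchain was the most abundant of them (mean 415.7 CPM over 18 libraries). Group means of Jchain, Slamf7, Prdm1, Sdc1, and Tnfrsf17 (1 to 13 counts) were higher in Peyer's patch under all 3 treatments. For Sdc1 in PBS controls they were close (14.9 against 14.1 CPM). Mean Xbp1 was lower in Peyer's patch with soluble OVA (83.7 against 94.7 CPM) and OVA NPs (101.6 against 108.2 CPM). Mean Irf4 was lower there with soluble OVA (147.8 against 169.4 CPM). The part of plasma cells in the Ccr10 difference was not tested. Ccr10 lies inside the span of Cntnap1 on the other strand and shares 0 exon bases with it. Cntnap1 was also higher in Peyer's patch, at 2.41 to 4.68 CPM against 0.407 to 1.27 CPM in spleen.

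In spleen, the comparison of OVA NPs with PBS asks how B cells of sensitized mice differed away from the gut after OVA NPs. No group received particles without OVA, so particle and OVA cannot be told apart in it. Cxcr5, Ccr7, and Ccr1 fell, and no tested receptor rose. These are 3 of the 7 receptors tested, Ccr10 being too low to test, where 15% of all tested genes were called in either direction, 8.6% higher and 6.35% lower. Cxcr5 (chromosome 9, 44511787 to 44561877, minus strand), the follicle receptor, was at 534, 579, and 597 CPM in PBS controls and 420.4, 417, and 473 CPM with OVA NPs, and the groups did not overlap. It fell by 0.38 on the log2 scale (SE 0.06, edgeR, adjusted p = 0.000714). Ccr7 (chromosome 11, 99144196 to 99155077, minus strand) was at 125, 129, and 115 CPM with PBS and 95.4, 96.9, and 95.4 CPM with OVA NPs, and fell by 0.35 (SE 0.05, adjusted p = 0.000403). Ccr1 (chromosome 9, 123962124 to 123968692, minus strand), which binds CCL3 and CCL5, was at 21.6, 21.3, and 19.4 CPM with PBS and 14.8, 13.5, and 16.7 CPM with OVA NPs, and fell by 0.46 (SE 0.10, adjusted p = 0.00487). These 3 calls were made in the 6 libraries of the comparison, and in a fit to all 18 libraries their adjusted p was 0.125, 0.674, and 0.114 with log2 fold changes of −0.38, −0.36, and −0.47. That fit did test Ccr10, which was at 0.0866 to 0.122 CPM with PBS and 0.223 to 0.633 CPM with OVA NPs. It called Ccr10 higher (log2 fold change 2.26, adjusted p = 0.017 by edgeR), on 2 to 16 counts per library. With no count filter the fit to the 6 libraries did not call Ccr10 (2.24, adjusted p = 0.0525). Ccr10 was called without OVA NP replicate 2 (adjusted p = 0.0238) but not when any PBS library was left out (adjusted p = 0.0754 to 0.0968). Monocyte and macrophage markers (10 of 10 detected), from cells that also carry Ccr1, summed to 116 to 268 CPM in the spleens of PBS controls and 48.2 to 167 CPM with OVA NPs. Neutrophil markers (5 genes) summed to 131 to 361 and 139 to 469 CPM. Of these 5, Mpo was the most abundant (mean 119 CPM over 18 libraries), and Ly6g had at most 1 count in any library. The part of these cells in the Ccr1 difference was not tested.

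Soluble OVA against PBS in spleen uses the same PBS libraries. It also gave 3 calls among 7 tested receptors, 2 lower and 1 higher, where 17.2% of all tested genes were called, 6.72% lower and 10.5% higher. Cxcr5 was at 446, 442, and 398 CPM with soluble OVA and fell by 0.41 (SE 0.07), and Ccr7 was at 96.0, 81.2, and 79.2 CPM and fell by 0.52 (SE 0.07; edgeR, adjusted p = 0.00106 and 0.000229). In a fit to all 18 libraries neither was called (adjusted p = 0.0845 and 0.476 by edgeR). That fit called Ccr10 higher (log2 fold change 1.98, adjusted p = 0.0331). Ccr10 was at 0.187 to 0.577 CPM with soluble OVA and was not tested in the 6 libraries. With no count filter the fit to the 6 libraries did not call it (1.94, adjusted p = 0.22 by edgeR). Ccr1, at 14.98, 19.7, and 13.9 CPM, overlapped the PBS range and missed the threshold narrowly, with a log2 fold change of −0.37 and an adjusted p of 0.0501 (0.00646 without soluble OVA replicate 2). Cxcr3 (X chromosome, 101731535 to 101734269, minus strand), the receptor for interferon-induced CXCL9 and CXCL10, was the 1 of the 7 tested that rose. It was at 0.477, 0.651, and 1.18 CPM with PBS (11, 16, and 26 counts) and at 1.77, 2.24, and 1.93 CPM with soluble OVA (46, 36, and 36 counts), a log2 fold change of 1.36 ± 0.37 (edgeR, adjusted p = 0.0183). This call was lost without PBS replicate 1 or 2 or without soluble OVA replicate 2 (adjusted p = 0.0519 to 0.0814).

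Ccr6 (chromosome 17, 8236043 to 8257141, plus strand) overlapped across all 3 spleen groups. It was at 92.7, 91.6, and 97.3 CPM with PBS, 79.2, 105, and 95.3 CPM with soluble OVA, and 85.7, 85.3, and 98.1 CPM with OVA NPs. The 95% CI of the log2 fold change against PBS was −0.19 to 0.07 for OVA NPs and −0.21 to 0.19 for soluble OVA. Spleen Cxcr4 was lower in all 6 treated libraries than in the 3 PBS libraries, but its log2 fold changes of −0.48 and −0.54 did not pass in edgeR (adjusted p = 0.133 and 0.0888). Without PBS replicate 2, the highest of its group, both were smaller and passed (−0.28 and −0.34, adjusted p = 0.0151 and 0.0338), as the latter did without PBS replicate 1. Spleen Ccr9 was not called with either treatment (−0.46 and −0.56, adjusted p = 0.149 and 0.172), except with soluble OVA when its replicate 2 was left out (−0.91, adjusted p = 0.0233). Between OVA NPs and soluble OVA in spleen, 0 of 8 receptors were called by edgeR or by DESeq2, where edgeR called 0.238% of all tested genes, 0.137% higher and 0.101% lower. At an unadjusted p under 0.05 there were 2 of the 8, beside 1199 of all 13840 tested genes. These were Cxcr3 (log2 fold change −1.11, adjusted p = 0.275 by edgeR) and Ccr7 (0.17, adjusted p = 0.545). Cxcr3 was at 1.03, 0.837, and 0.871 CPM with OVA NPs, below all 3 soluble OVA libraries. Its Peyer's patch level was 2.21, 1.54, and 2.20 CPM with PBS, 2.80, 1.76, and 2.51 CPM with soluble OVA, and 3.31, 3.57, and 2.37 CPM with OVA NPs. The soluble OVA libraries overlapped both other groups, and all 3 OVA NP libraries lay above the PBS libraries, with a log2 fold change of 0.64 that did not pass (adjusted p = 0.524 by edgeR).

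**Figure D3:**
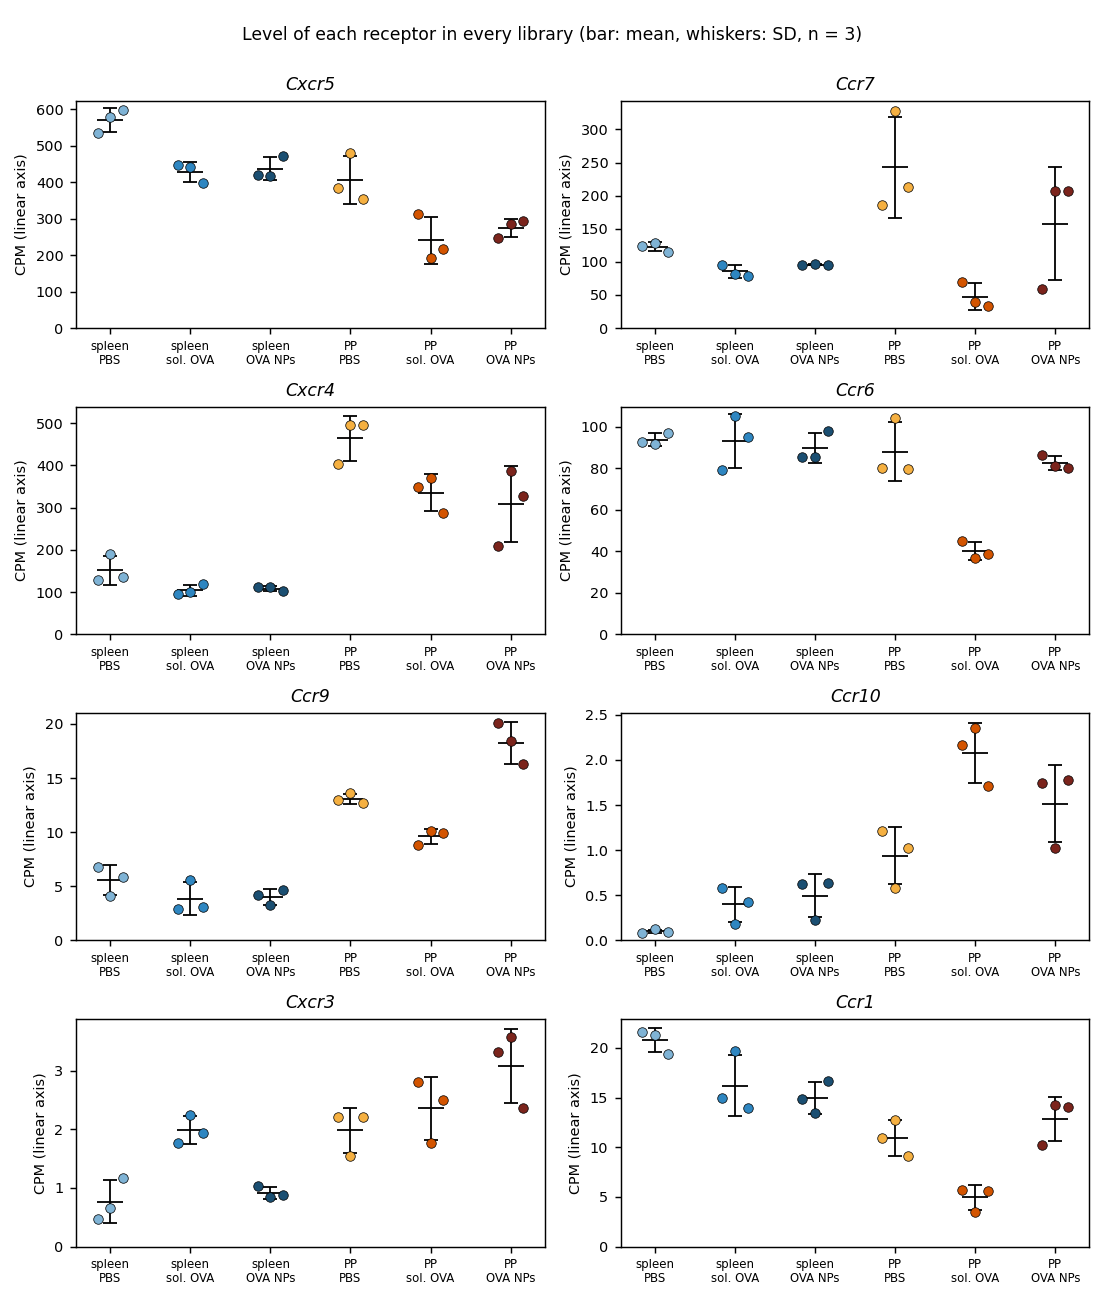
CPM (linear axis) of each receptor in the 18 libraries, grouped by tissue and treatment, with 1 point per library and the mean ± SD of 3. In Peyer's patch after soluble OVA, Ccr6 sits at 36.7 to 44.8 CPM and Ccr1 at 3.52 to 5.74 CPM, below every other library of the same gene, and Cxcr4 is higher in all Peyer's patch libraries than in all spleen libraries.

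In Peyer's patch, soluble OVA against PBS gave the most receptor calls of the 6 treatment comparisons. Of the 8 receptors, 6 fell and 0 rose, where 27.4% of all tested genes were called in either direction, 13.5% higher and 13.9% lower. Ccr7 fell by 2.37 on the log2 scale (SE 0.40), Ccr1 and Ccr6 each fell by 1.15 (SE 0.23 and 0.12), Cxcr5 fell by 0.77 (SE 0.21), Cxcr4 fell by 0.48 (SE 0.11), and Ccr9 fell by 0.45 (SE 0.13). The adjusted p by edgeR was 0.014, 0.00607, 0.000231, 0.0402, 0.0141, and 0.0335 in that order. The remaining pair, Cxcr3 (0.23, adjusted p = 0.645) and Ccr10 (1.10, adjusted p = 0.0573), did not pass.

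Ccr6, the receptor for CCL20, gave the call in this comparison with the lowest adjusted p of the 8. It was at 80.0, 105, and 79.8 CPM in Peyer's patches of PBS controls, 44.8, 36.7, and 38.5 CPM after soluble OVA, and 86.5, 81.2, and 79.9 CPM after OVA NPs. All 3 soluble OVA libraries lay below the other 15 libraries of both tissues. Ccr1 was at 10.9, 12.7, and 9.12 CPM with PBS, 5.74, 3.52, and 5.60 CPM with soluble OVA, and 10.3, 14.2, and 14.1 CPM with OVA NPs, and the soluble OVA libraries were again the lowest of the 18. The calls of Ccr1 and Ccr6 held without each library in turn (adjusted p up to 0.0251 and 0.00424) and in every other setting tried.

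Ccr7 was more variable. It was at 186, 329, and 213 CPM with PBS, 70.2, 38.7, and 33.1 CPM with soluble OVA, and 59.4, 207, and 207 CPM with OVA NPs. The soluble OVA libraries lay below all PBS libraries, and OVA NP replicate 1 lay among them rather than with replicates 2 and 3. The Ccr7 call of soluble OVA against PBS was lost without soluble OVA replicate 2 (adjusted p = 0.0772). Cxcr5 was at 384, 479, and 355 CPM with PBS, 314, 192, and 216 CPM with soluble OVA, and 248, 285, and 292 CPM with OVA NPs. Of the 6 fits that left out a library, the Cxcr5 call against PBS held in 1, without soluble OVA replicate 1, and the Ccr9 call in 0 (adjusted p up to 0.172 and 0.119). The Cxcr4 call was lost without PBS replicate 2 or 3 or soluble OVA replicate 3 (adjusted p up to 0.0923).

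OVA NPs against soluble OVA in Peyer's patch uses the same soluble OVA libraries. Ccr1, Ccr6, and Ccr9 were called higher after OVA NPs, 3 of 8 receptors, and 0 lower, where 30.1% of all tested genes were called in either direction, 13.8% higher and 16.3% lower. Ccr1 was higher by 1.38 ± 0.23 on the log2 scale, Ccr6 by 1.05 ± 0.10, and Ccr9 by 0.94 ± 0.13 (edgeR, adjusted p = 0.00266, 0.00036, and 0.00129), and each call held without each library in turn. The mitochondrial share of counts also separated these groups, at 9.08% to 9.8% after OVA NPs and 4.97% to 6.02% after soluble OVA (5.41% to 7.67% with PBS), and its part in the differences was not tested. T cell markers were called higher in 7 of 10 genes and dendritic cell markers in 6 of 7, with dendritic cell sums of 73.4 to 80.7 CPM after OVA NPs and 51.0 to 52.8 CPM after soluble OVA. CCR9 is also a receptor of T cells and plasmacytoid dendritic cells, and their part in its difference was not tested. Ccr7 differed by 1.73 ± 0.62 and did not pass (adjusted p = 0.107). Without OVA NP replicate 1 its difference was 2.07 and passed (adjusted p = 0.032), and DESeq2 called it in all 6 libraries (adjusted p = 0.0212). Cxcr4 and Cxcr5 were not called, with intervals of −0.67 to 0.44 and −0.29 to 0.69, and without OVA NP replicate 1 the value of Cxcr4 was 0.029 (adjusted p = 0.897). Without soluble OVA replicate 1 Cxcr5 was higher after OVA NPs by 0.46 and passed (adjusted p = 0.00804). The OVA NP dose is the mass of the particles, which at the loading stated in the methods carry the same mass of OVA as the soluble dose.

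OVA NPs against PBS in Peyer's patch gave 0 calls among the 8 receptors, as among all genes (0% of 15798 tested by edgeR, with 1573 genes at an unadjusted p under 0.05). For 3 receptors the unadjusted p was under 0.05. Cxcr5 was lower in all 3 OVA NP libraries than in all 3 PBS libraries (log2 fold change −0.55 ± 0.11, adjusted p = 0.219 by edgeR), and DESeq2 called it (adjusted p = 0.00114). Ccr9 was higher in all 3 OVA NP libraries (0.49 ± 0.13, adjusted p = 0.287 by edgeR), and Cxcr4 was lower in all 3 (−0.59 ± 0.22, adjusted p = 0.473). The interval of Ccr6 was −0.33 to 0.17, and that of Ccr7 was −2.00 to 0.77 around a log2 fold change of −0.62. Without OVA NP replicate 1 the values were smaller, −0.38 for Cxcr4 and −0.23 for Ccr7, and neither passed (adjusted p = 0.437 and 0.871 by edgeR).

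**Figure D4:**
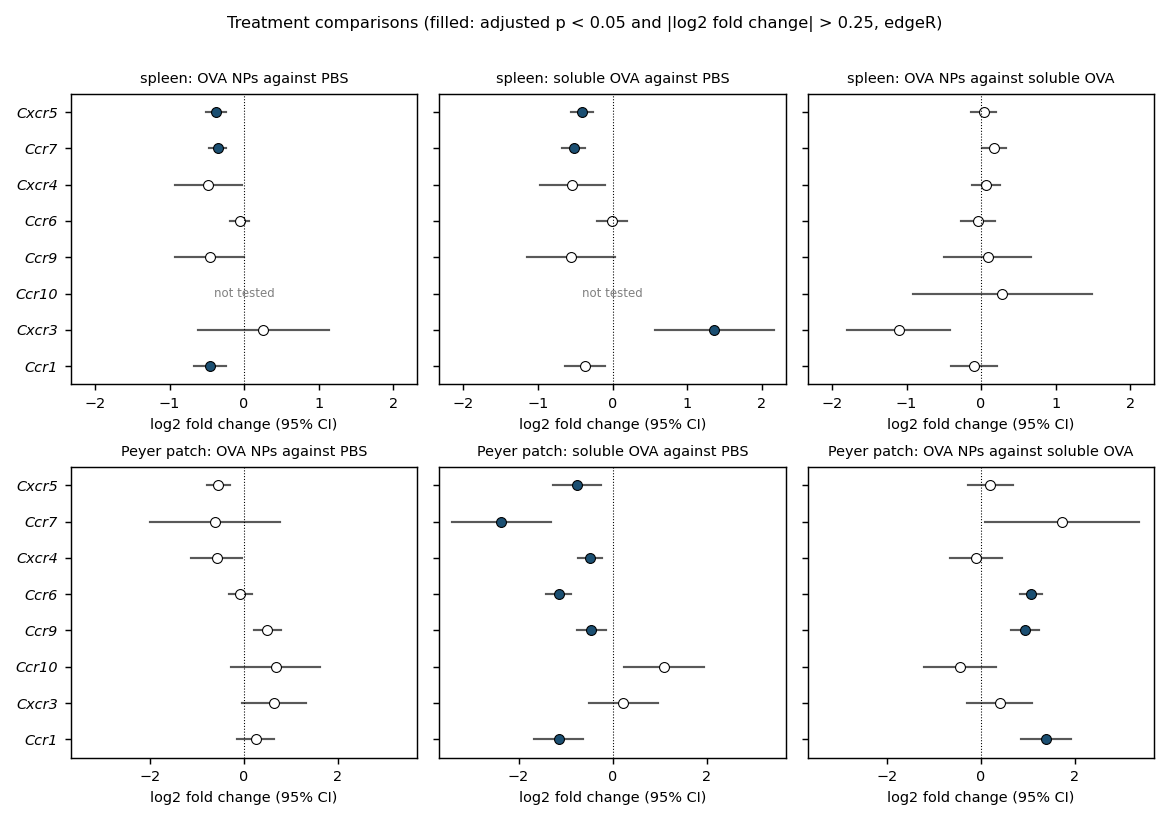
Log2 fold change of each receptor in the 6 treatment comparisons, 3 in spleen and 3 in Peyer's patch, with 95% CIs and filled points where edgeR called the gene. Soluble OVA against PBS in Peyer's patch has 6 filled points left of 0, and OVA NPs against PBS in Peyer's patch has 0 filled points.

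The interaction of tissue and treatment tests whether a treatment moved a receptor differently in Peyer's patch than in spleen. For soluble OVA against PBS, 2 of 8 receptors passed, both lower, where 6.84% of all tested genes did, 1.77% higher and 5.07% lower. The effect on Ccr6 was 1.13 lower in Peyer's patch on the log2 scale (−1.13 ± 0.17, 12 libraries, edgeR, adjusted p = 0.00123), and it passed without each library in turn. The effect on Ccr7 was 1.84 lower (−1.84 ± 0.42, edgeR, adjusted p = 0.0335), and it passed in 3 of 12 fits that left out a library, those without Peyer's patch PBS replicate 1 or 2 or soluble OVA replicate 1 (adjusted p up to 0.0862 in the others). For OVA NPs against PBS, 1 of 8 passed, where 4.42% of all tested genes did, 0.872% higher and 3.54% lower. This was Ccr9, whose effect was 0.97 ± 0.26 higher in Peyer's patch (edgeR, adjusted p = 0.0466), and the fits without spleen PBS replicate 2, spleen OVA NP replicate 3, or Peyer's patch OVA NP replicate 3 passed, 3 of 12 (adjusted p up to 0.13 in the others). The part of T, NK, and dendritic cells in the Ccr9 value was not tested. Ccr1 narrowly missed in the same edgeR test (0.73 ± 0.20, adjusted p = 0.0527).

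The Peyer's patch differences moved with markers of B cell states. Naive follicular B cell genes (4 of 4 detected, among them Ighd and Fcer2a) summed to 1988 to 2546 CPM with PBS, 659 to 932 CPM with soluble OVA, and 1727 to 1965 CPM with OVA NPs, and all 4 were called lower by soluble OVA against PBS. Germinal center genes (10 genes, among them Bcl6) summed to 1561 to 1888, 2880 to 2917, and 1194 to 1842 CPM, and 8 of 10 were called higher. Cycling genes (6 genes, among them Mki67) summed to 1147 to 1433, 2794 to 3066, and 939 to 1375 CPM, and 6 of 6 were called higher. Soluble OVA against PBS in Peyer's patch called 13.5% of all tested genes higher and 13.9% lower. In spleen, germinal center genes were at 112 to 199 CPM with PBS, 449 to 676 CPM with soluble OVA, and 426 to 469.6 CPM with OVA NPs, while naive follicular genes were at 3973 to 4186, 3171 to 3659, and 2981 to 3506 CPM. Over the 18 libraries, log2 levels of Ccr6 and the naive follicular sum had an r of 0.912, and 0.945 after each tissue's mean was subtracted. For Ccr1 these were 0.932 and 0.866, for Cxcr5 0.901 and 0.77, and for Ccr7 0.445 and 0.85. For Cxcr4 they were −0.651 and 0.31, for Ccr9 −0.547 and 0.562, for Ccr10 −0.842 and −0.554, and for Cxcr3 −0.592 and −0.075. A sum of 6 marginal zone B cell genes was also compared, with tissue means subtracted. Its r was 0.894 for Ccr1, 0.879 for Ccr6, 0.782 for Cxcr5, and 0.789 for Ccr7. That of the 8 B cell markers was 0.514, 0.492, 0.86, and 0.654 in this order. The points share treatment groups and library preparation, and the part of cell makeup in the receptor differences was not tested.

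**Figure D5:**
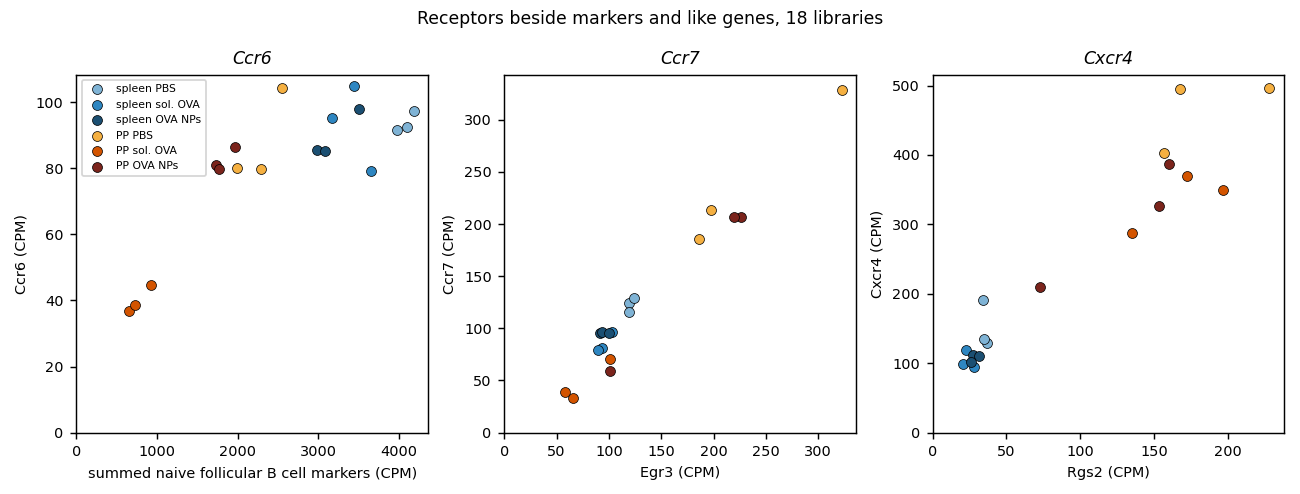
Ccr6 against the naive follicular marker sum, Ccr7 against Egr3, and Cxcr4 against Rgs2 in the same 18 libraries, 1 point per library, colored by group. Peyer's patch OVA NP replicate 1 lies low for Egr3 (101 CPM) and Rgs2 (72.5 CPM) as for Ccr7 and Cxcr4.

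Genes with the closest pattern differed between receptors. Among 9990 genes with a mean of at least 5 CPM, Ccr6 was closest to Dclk2 (r = 0.98 across 18 libraries), Cxcr5 to Gpr18 (0.98), a receptor of lymphocytes, and Ccr1 to Zfp945 (0.98). With tissue means subtracted, Ccr7 was closest to Egr3 (0.99), an early-response transcription factor. Without this subtraction, Cxcr4 was closest to Pmaip1 (0.97), Rgs2 (0.97), and Dusp1 (0.96), of which Rgs2 damps G protein signals and Dusp1 is an early-response phosphatase. With it, Cxcr4 was closest to Phka2 (0.925). In Peyer's patch, Egr3 was at 186, 323, and 198 CPM with PBS, 101, 57.8, and 65.3 CPM with soluble OVA, and 101, 226, and 219.9 CPM with OVA NPs. Rgs2 was at 157, 228, and 167 CPM, 197, 172, and 135 CPM, and 72.5, 160.4, and 153 CPM in the same order. OVA NP replicate 1 was the lowest of its group for both genes, as it was for Ccr7 and Cxcr4. Without the subtraction, Ccr9 was closest to Itgax (0.97), a gene of dendritic cells and some B cells, which was at 3.695 to 7.10 CPM in the spleen group means and 19.9 to 38.6 CPM in those of Peyer's patch. With tissue means subtracted, Ccr9 was closest to Actn1 (0.866). Between members, Ccr1 and Ccr6 had an r of 0.90, and Ccr10 and Cxcr5 an r of −0.86 (0.88 and −0.67 with tissue means subtracted).

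The chemokines that these receptors bind were low in the purified cells. Of 17 ligands, 3 passed the count filter in the spleen comparisons and 14 in those of Peyer's patch. Ccl19 and Ccl20 were at 0 counts in all 9 spleen libraries. The most abundant in Peyer's patch, named here after the values were seen, was Ccl25, the CCR9 ligand of the gut epithelium, at group means of 34.8, 51.4, and 46.2 CPM with PBS, soluble OVA, and OVA NPs, followed by Ccl21a at 19.4, 6.59, and 8.73 CPM. Epithelial markers were present in the same libraries (178 to 928 CPM), and their part in the Ccl25 level was not tested. Cxcl13, the CXCR5 ligand, fell after soluble OVA from 7.89 ± 1.68 (SD, n = 3) to 3.11 ± 1.47 CPM (log2 fold change −1.35, adjusted p = 0.0191 by edgeR), and Ccl4 also fell (−2.21). These 2 were called among the 14 tested, both lower, where 13.9% of all tested genes were called lower and 13.5% higher. In spleen, Ccl6, a CCR1 ligand of myeloid cells, was the 1 ligand of 3 called with soluble OVA against PBS (−2.29, adjusted p = 0.0105 by edgeR). Of all tested genes, 6.72% were called lower and 10.5% higher in that spleen comparison. Monocyte and macrophage markers summed to 116 to 268 CPM with PBS and 38.4 to 85.0 CPM with soluble OVA in the same libraries, and their part in the Ccl6 value was not tested.

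Other guidance receptors were read beside the 8. Of 16 receptors and adhesion molecules that position B cells, 12 were called by soluble OVA against PBS in Peyer's patch, 11 lower and 1 higher, with a median log2 fold change of −0.67 against −0.02 over all genes, of which 27.4% were called. Gpr183, the oxysterol receptor of the outer follicle, fell by 1.71, and P2ry10, a lysophospholipid receptor, fell by 1.59. S1pr2, which confines germinal center B cells, rose by 0.65. OVA NPs against soluble OVA called 9 of 16, 8 higher and 1 lower (30.1% of all genes), with P2ry10 higher by 1.37 and S1pr2 as the lower gene (−0.96). In spleen soluble OVA against PBS called 10 of 16, 7 lower and 3 higher (17.2% of all genes), and OVA NPs against PBS called 7, 6 lower and 1 higher (15%), with S1pr2 as the higher gene in the latter (log2 fold change 2.72, adjusted p = 0.0334 by edgeR). S1pr1, the egress receptor, was among the lower genes of both (−0.37 and −0.41). In the interaction of tissue with soluble OVA 8 passed (6.84% of all genes did), and in all 8 the response, not the level, was lower in Peyer's patch. Gpr183 (−2.05) rose in spleen by 0.35 and fell in Peyer's patch, and S1pr2 (−2.35) rose in both, by 3.00 in spleen.

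Among chemokine scavengers, Ackr4, which clears CCL19, CCL21, CCL25, and CCL20, rose in spleen from a mean of 0.569 CPM with PBS by 3.04 with soluble OVA and by 2.51 with OVA NPs on the log2 scale (edgeR, adjusted p = 3.61e-05 and 0.000204), and in Peyer's patch it rose by 1.198 with soluble OVA. All 4 tested scavengers were called by soluble OVA against PBS in Peyer's patch, Ackr4 and Ackr2 higher and Ackr3 and Ccrl2 lower. That comparison called 27.4% of all tested genes, 13.5% higher and 13.9% lower. Of the other chemokine receptors, 2 of 7 tested fell in that comparison, among them Cxcr6 (−1.07), which T cells also carry. After OVA NPs 6 of 7 were higher than after soluble OVA, where 13.8% of all tested genes were called higher. T cell markers were called higher in 7 of 10 genes in the latter contrast, with sums of 204 to 233 and 191 to 216 CPM, and their part in these values was not tested.

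Signal transducers downstream of the receptors moved in both directions. Of 26 G proteins and effectors, 12 were called by soluble OVA against PBS in Peyer's patch, 8 lower and 4 higher, with a median log2 fold change of 0.03, and OVA NPs against soluble OVA called 13, 7 higher and 6 lower, where 27.4% and 30.1% of all genes were called. In the latter, Plcb2, a phospholipase activated by Gβγ, was higher by 1.06 and Pik3r5, a PI3Kγ adaptor, by 1.10. Of 18 kinases, arrestins, and RGS proteins that switch receptors off, 7 were called by soluble OVA against PBS, near the 27.4% of all genes, 6 lower and 1 higher, with Arrb1, encoding β-arrestin 1, lower by 0.83 (edgeR, adjusted p = 0.000266), Grk3, a receptor kinase, lower by 0.82, and Rgs10 higher by 0.73. In spleen Grk3 fell with soluble OVA by 0.88 and with OVA NPs by 0.67, and Rgs10 rose by 0.69 and 0.43. Between tissues in PBS controls, Rgs1 was higher in Peyer's patch, at a mean of 111 CPM against 0.464 CPM in spleen, as was Rgs13, at 115 against 3.76 CPM (edgeR, adjusted p = 3e-06 and 0.00043). Both blunt chemokine responses in B cells, and Rgs13 is also 1 of the 10 germinal center genes.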

How the data were processed

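RNA-seq of B cells enriched by negative selection from the spleen and Peyer's patches was read from 1 table of 18 libraries. Per the labels and the submitters' processing notes, poly(A) libraries were trimmed with cutadapt 2.3, checked with FastQC 0.11.8 and MultiQC 1.7, aligned to GRCm38 with STAR 2.7.8a, and quantified with RSEM 1.3.3. The authors deposited RSEM expected counts per gene, and 0 values in the table were not whole, so no rounding changed a number. No per-sample column was left unused.

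Genes passing filterByExpr (minimum count 10, minimum total 15) were TMM normalized and tested with edgeR 4.0.16 (R 4.3.3; robust quasi-likelihood F test, two-sided) on the 6 libraries of each of 9 comparisons or, for the 2 tissue interactions, on 12. P-values were adjusted by Benjamini-Hochberg over all tested genes. A call needed an adjusted p under 0.05 and, between 2 groups, an absolute log2 fold change over 0.25. DESeq2 1.42.0, RLE size factors, other filters, a fit to all 18 libraries, a replicate block, and leaving out each library were alternatives. CPM used TMM factors over 18 libraries, and RPKM used GENCODE M21 exon lengths. Correlations other than those with marker sums used log2 CPM with a prior count of 2. Those with marker sums used log2 CPM of the receptor, with a small constant added, and log2 of the summed CPM. The 8 receptors, gene lists, and tests were chosen with earlier results of these data known. All 8 receptors are named. From each list and comparison, up to 2 called genes per direction of largest change with a mean of at least 1 CPM could be named, and like-pattern genes are among the 3 closest by Pearson's r with a mean of at least 5 CPM. Values of some genes in these lists are not reported here. Model scripts were tested on simulated data.

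Library totals of 14177253 to 30052297 counts set the precision, and replicate libraries were not duplicates of each other (0 of 18 pairs identical).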

Additional observations from a re-analysis of the deposited data

Results flagged for a closer look

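Among the receptors, 3 responses differed between tissues by a test of the difference itself (edgeR interaction of tissue and treatment on 12 libraries). The response of Ccr6 to soluble OVA against PBS was lower in Peyer's patch than in spleen by a log2 difference of −1.13 (adjusted p = 0.00123), and all 12 fits that left out a library kept the call. For Ccr7 under the same contrast the difference was −1.84 (adjusted p = 0.0335), with the call kept in 3 of 12 such fits. The response of Ccr9 to OVA NPs against PBS was higher in Peyer's patch by 0.97 (adjusted p = 0.0466), with the call kept in 3 of 12.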

How the results depend on the processing

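The calls of Ccr1 and Ccr6 in Peyer's patch for soluble OVA against PBS and for OVA NPs against soluble OVA, and those of Cxcr4, Cxcr5, and Ccr9 between tissues under all 3 treatments, held in every setting tried. Of the settings other than leaving out a library, 464 values kept their direction and side of the threshold, 22 gained and 18 lost a call, and 4 turned in sign. Of those that left out a library, 527 kept both, 13 gained and 41 lost a call, and 30 turned in sign.

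For OVA NPs against PBS in spleen, the fit to all 18 libraries called 1 receptor in place of 3 (Ccr10, not tested in the 6 libraries), and leaving out a library gave 3 to 4. For soluble OVA against PBS in spleen, 6 were called with no count filter. For OVA NPs against PBS in Peyer's patch, DESeq2 and the fit with no count filter each called 1, and for soluble OVA against PBS in Peyer's patch leaving out a library gave 3 to 5 in place of 6. For the OVA NP interaction, DESeq2, RLE size factors, no count filter, and 10 counts in every library each called 2, the fit to all 18 libraries called 0, and leaving out a library gave 0 to 2. For the soluble OVA interaction, the fit to all 18 libraries called 1 and leaving out a library 1 to 3. Over all genes, DESeq2 called 83 against 33 by edgeR for OVA NPs against soluble OVA in spleen, 150 against 0 for OVA NPs against PBS in Peyer's patch, and 1256 against 734 and 1823 against 1131 for the OVA NP and soluble OVA interactions. The cause was not tested. For the other settings, the replicate block below included, the share of all genes called is not reported here. Those receptor counts show only how calls changed and cannot be set against the rate over all genes.

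Same-numbered libraries did not pair: no comparison had every pair's correlation of deviations above 0.1 (range −0.306 to 0.299). With the replicate number as a block, 4 receptors were called for OVA NPs against PBS in spleen (Cxcr4 added, adjusted p = 0.0474), 7 between tissues with soluble OVA (Ccr7 added, −0.92, adjusted p = 0.00444), 5 were called for soluble OVA against PBS in spleen (Ccr1 and Cxcr4 added), 3 for soluble OVA against PBS in Peyer's patch (Ccr7, Ccr9, and Cxcr5 lost), 0 for the OVA NP interaction, and 1 for the soluble OVA interaction.

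Values that turned in sign were uncalled and near 0. For the OVA NP interaction of Ccr6 they were 0.016 with DESeq2, 0.014 with RLE size factors, 0.053 with no count filter, and 0.0031 with 10 counts in every library, against −0.0034. Leaving out a library moved that of Ccr6 from −0.067 to 0.13, Ccr7 from −0.48 to 0.16, Cxcr3 from −0.033 to 0.64, and Cxcr4 from −0.29 to 0.13. For the soluble OVA interaction the ranges were −0.065 to 0.47 for Ccr9 and −0.13 to 0.23 for Cxcr4. For OVA NPs against soluble OVA in spleen they were −0.18 to 0.068 for Ccr1, −0.16 to 0.055 for Ccr6, −0.10 to 0.45 for Ccr9, −0.0048 to 0.66 for Ccr10, −0.013 to 0.18 for Cxcr4, and −0.024 to 0.071 for Cxcr5. For soluble OVA against PBS in spleen Ccr6 ran from −0.10 to 0.11. In Peyer's patch, Ccr6 ran from −0.14 to 0.057 for OVA NPs against PBS, and Cxcr4 from −0.36 to 0.029 for OVA NPs against soluble OVA. Depth limits Ccr10 in spleen, at 2 to 16 counts per library, and Cxcr3 in spleen, at 11 to 46 counts.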
